A study of Mus musculus with 5 samples.

Results

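Transcripts of the machinery that copies DNA were compared between sorted mature CD8 single-positive (SP) thymocytes of Runx3 +/WRPW mice and of Runx3 +/+ mice. The 49 genes were taken by symbol from the 35976 genes in the count files, and all 49 had a row and passed the filter on low counts. They were grouped by role into origin licensing (9 genes), the replicative helicase and its activators (12), polymerases and primase (9), the sliding clamp and its loader (6), single-strand binding and Okazaki fragment maturation (5), nucleotide supply (5) and chromatin assembly behind the fork (3). The Runx3 +/WRPW group (n = 3 libraries) carried 1 allele named WRPW beside 1 wild-type allele, and the Runx3 +/+ group (n = 2 libraries) carried only wild-type Runx3. The labels give no treatment, age or sex, do not describe the WRPW change and name no separate animals or donors behind the libraries. The p-values therefore reflect the spread among these 5 libraries, which may be technical. Mature CD8 SP thymocytes are the CD8 lineage cells that leave the thymus for the blood. Runx3 encodes the Runt-domain transcription factor of that lineage.

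Total counts were 15715242 to 43758550 in the Runx3 +/WRPW libraries, and 21635675 and 25526389 in the Runx3 +/+ libraries. The lowest count of any of the 49 genes in any library was 90. Levels are CPM, a gene's count scaled to a library size of 1e+06 after TMM adjustment (trimmed mean of M-values). Calls were made where edgeR's quasi-likelihood test, with Benjamini-Hochberg adjustment over 13666 genes, gave an adjusted p under 0.05. Runx3 +/WRPW library 2 stood apart: 27414 genes had a count in it, while the other 4 libraries had counts at 17237 to 18967 genes. Of 4 CD8 T cell markers measured, 0 were called; Cd8a was at 2501, 2268 and 2635 CPM in Runx3 +/WRPW libraries and 2617 and 2202 CPM in Runx3 +/+ libraries, and Cd8b1, Cd5 and Cd3e had log2 fold changes of -0.38, -0.37 and -0.25, with no overlap between genotypes for Cd5 and Cd3e. The 6 markers of immature or double-positive thymocytes summed to 13.2 to 15.8 CPM in Runx3 +/WRPW libraries and 30.4 and 32.4 CPM in Runx3 +/+ libraries, with Rag1 at 0.200 to 0.644 CPM and Rag2 and Ptcra at 0 to 0.0920 CPM over the 5 libraries. Dntt was called 3.57-fold lower, at 5.26, 2.18 and 2.53 CPM in Runx3 +/WRPW libraries and 12.7 and 11.8 CPM in Runx3 +/+ libraries (edgeR adjusted p = 0.0280). Cd24a, at 9.69, 9.96 and 12.4 CPM in Runx3 +/WRPW libraries and 16.7 and 15.0 CPM in Runx3 +/+ libraries, and Cd4, at 0.160, 0.374 and 0.0460 CPM in Runx3 +/WRPW libraries and 0.467 and 5.36 CPM in Runx3 +/+ libraries, had no overlap between genotypes and did not pass. The summed B cell, myeloid, natural killer, erythroid, thymic epithelial and gamma delta T cell markers were at 0.160 to 12.3 CPM per library and list, the highest being the epithelial list in Runx3 +/WRPW library 2.

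As background, a replication origin is first marked by the origin recognition complex (ORC), onto which Cdc6 and Cdt1 load the ring of Mcm2 to Mcm7; this is licensing, and it happens before S phase. In S phase Cdc45, the GINS complex and Mcm10 turn the ring into a moving helicase, polymerases copy both strands, and the clamp Pcna holds them on the template. Many of these genes are transcribed in bursts as cells commit to S phase, under E2F factors, while others are transcribed steadily in resting cells too. Most mature thymocytes rest, and a minority divide.

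Replication genes were lower in Runx3 +/WRPW cells, to very unequal degrees. Of the 49 genes, 28 were called lower and 0 higher, and 21 did not pass; over all genes tested 7.33% were called lower and 6.24% higher. The fitted log2 fold change was negative for 48 of the 49, with a median of -0.48, against a median of 0.02 over all genes tested. In 45 of the 49 all Runx3 +/WRPW libraries lay below both Runx3 +/+ libraries, a pattern found in 23.8% of all genes tested; the opposite pattern, found in 24.7% of them, occurred in 0 of the 49. A fall of at least 2-fold was called in 9 of the 49 genes, against 2.69% of all genes tested. One of at least 4-fold was called in 1 of the 49, Rrm2, against 1.1% of all genes tested. Summed over the 49 genes, the level was 2609, 2443 and 2656 CPM in the Runx3 +/WRPW libraries, against 3412 and 3428 CPM in the Runx3 +/+ libraries, so the summed level in Runx3 +/WRPW cells was 0.751 times that in Runx3 +/+ cells. In bulk RNA, fewer dividing cells and less of these transcripts per cell cannot be told apart. Of the immature thymocyte markers above, Dntt was also called lower in Runx3 +/WRPW libraries. Cd24a and Cd4 were lower there too but did not pass, and Cd4 was at 0.467 and 5.36 CPM in Runx3 +/+ libraries 1 and 2. Rag1 was not lower (log2 fold change 0.55, not passed), and Rag2 and Ptcra were too low to test. The part of these markers in the result was not tested. Leaving out 1 library at a time gave 17, 21 and 19 genes called lower without Runx3 +/WRPW library 1, 2 or 3. Over all genes tested in those fits, 3.53%, 6.36% and 3.99% were called lower. Fits without Runx3 +/+ library 1 or 2 rest on 1 wild-type library and called fewer genes. The median log2 fold change of the 49 genes was -0.52 and -0.50 there. Cdc6, Cdc45, Pole2, Lig1, Rrm2, Chaf1a and Asf1b were called lower in each of these 5 fits. In GRCm38 these genes lie as follows: Cdc6 at chr11:98907709-98923942, Cdc45 at chr16:18780447-18811972, Pole2 at chr12:69201773-69228205, Lig1 at chr7:13277175-13311426, Rrm2 at chr12:24708254-24714146, Chaf1a at chr17:56040416-56068026 and Asf1b at chr8:83955694-83970195.

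**Figure D1:**
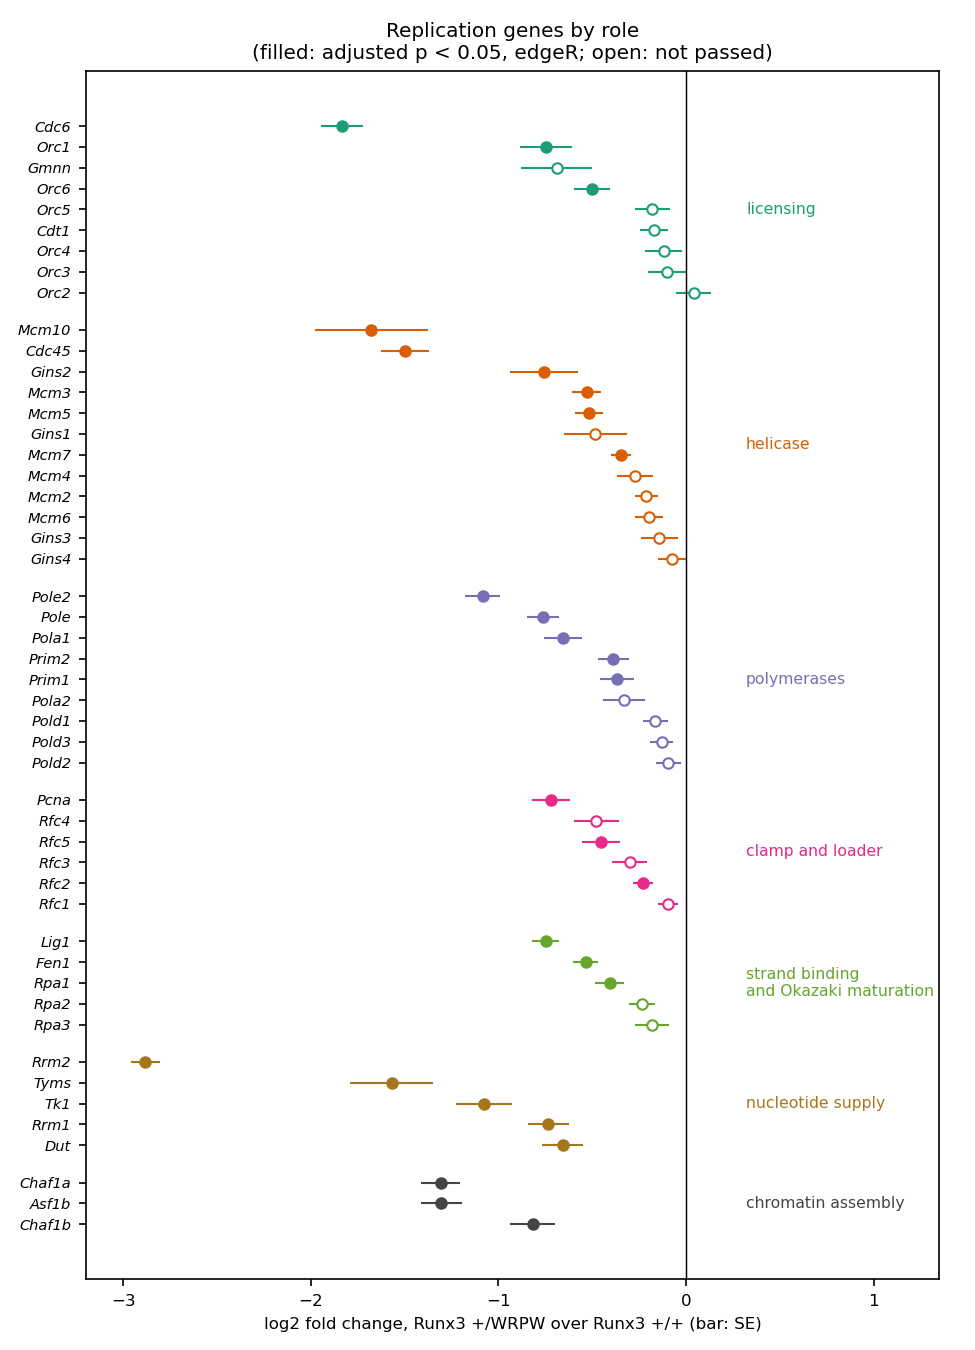
Log2 fold change of each of the 49 replication genes (Runx3 +/WRPW over Runx3 +/+, x axis), with its standard error as a bar, grouped by role down the page. Filled points were called lower and open points did not pass; 48 of 49 lie left of 0, and Rrm2 lies farthest left at -2.88.

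Promoter sequence was set beside these values because many replication genes are known E2F targets. RefSeq promoter windows (GRCm38.p6, 250 bases before the transcription start and 50 after) were available for 41 of the 49 genes, and the sets below follow the call of each gene. The words searched, on both strands, were the E2F words TTTCCCGC, TTTCGCGC, TTTGCCGC and TTTGGCGC, the Runx word TGTGGT, the CCAAT box and the CHR word TTTGAA. At least 1 E2F word was present in 15 of the 41 genes (36.6%), against 4.62% of the 9999 tested genes with a window. It was present in 8 of 24 replication genes called lower and in 7 of 17 that did not pass, and in 2 of the 9 that were at least 2-fold lower, Cdc6 and Pole2. A gene with several windows counted once if any window held a word; 14.6% of the 41 genes and 20.2% of tested genes with a window had several. For 7 of the 41, every window belonged to a transcript start more than 100 bases inside the RefSeq gene. One is Cdc6, whose start site lies 442 bases and E2F word 304 bases after the first base of the gene. Among genes called lower, the windows with the word in Cdc6, Lig1, Mcm7, Orc1 and Pola1 started 228 to 3749 bases inside the gene. In Mcm3, Mcm5 and Pole2, and in the 7 genes that did not pass, they started 0 to 41 bases inside it. The 8 genes called lower and the 7 that did not pass thus differ in where their windows lie. The Runx word was in 19.5% of the 41 genes and 15.6% of tested genes, CCAAT in 61.0% and 42.7%, and the CHR word in 14.6% and 14.8%. A word match describes these windows and is not a binding site. Below are the windows of the steepest fall (Rrm2), of the steepest falls in their roles among genes called lower that hold an E2F word (Mcm3 and Pole2), and of the gene with the largest p-value (Orc3, which also holds an E2F word). The genes other than Rrm2 were taken among those with a single window that starts within 100 bases of the gene's first base; Orc2, with a larger p-value, has several windows. E2F words are in capitals, and each window is written 5′ to 3′ on the strand of the gene.
Rrm2: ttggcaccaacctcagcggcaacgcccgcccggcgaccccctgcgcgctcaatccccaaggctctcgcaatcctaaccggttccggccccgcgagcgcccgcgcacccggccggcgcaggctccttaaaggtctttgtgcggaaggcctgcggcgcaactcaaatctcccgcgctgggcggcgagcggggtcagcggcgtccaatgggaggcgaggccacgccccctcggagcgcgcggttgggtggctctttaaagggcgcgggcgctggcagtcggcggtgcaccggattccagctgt
Mcm3: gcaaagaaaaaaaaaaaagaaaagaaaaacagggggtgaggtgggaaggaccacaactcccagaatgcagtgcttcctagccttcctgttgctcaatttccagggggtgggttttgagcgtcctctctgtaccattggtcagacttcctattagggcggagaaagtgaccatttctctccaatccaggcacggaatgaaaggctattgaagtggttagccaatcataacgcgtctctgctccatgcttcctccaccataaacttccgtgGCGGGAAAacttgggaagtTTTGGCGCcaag
Pole2: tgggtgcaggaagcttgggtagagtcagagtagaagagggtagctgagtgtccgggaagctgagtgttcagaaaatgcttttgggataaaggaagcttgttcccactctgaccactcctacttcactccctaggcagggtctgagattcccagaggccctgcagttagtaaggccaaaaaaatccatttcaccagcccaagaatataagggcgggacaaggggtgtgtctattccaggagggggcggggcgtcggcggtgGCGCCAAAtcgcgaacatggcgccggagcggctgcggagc
Orc3: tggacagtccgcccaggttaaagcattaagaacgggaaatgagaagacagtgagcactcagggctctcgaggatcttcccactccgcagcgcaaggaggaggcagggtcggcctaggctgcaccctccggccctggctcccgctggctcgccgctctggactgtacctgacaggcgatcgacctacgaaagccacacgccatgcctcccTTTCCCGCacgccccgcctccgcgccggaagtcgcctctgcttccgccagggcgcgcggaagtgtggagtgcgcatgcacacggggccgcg
They lie at chr12:24708004-24708303 (plus strand, Rrm2), chr1:20820263-20820562 (minus, Mcm3), chr12:69228141-69228440 (minus, Pole2) and chr4:34614893-34615192 (minus, Orc3). Counted from the first transcribed base as 1, the words start at 20 and 39 in Mcm3, 11 in Pole2 and -41 in Orc3. Rrm2 had none of the exact E2F words in its window.

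Among licensing genes, the loader fell most and the core of the origin recognition complex showed no called change. Of the 9 genes, 3 were called lower and 6 did not pass, with a median log2 fold change of -0.18. Cdc6, the ATPase that loads the helicase ring, had 6.95, 6.41 and 6.39 CPM in Runx3 +/WRPW libraries 1 to 3, against 24.9 and 22.2 CPM in Runx3 +/+ libraries 1 and 2. The genotypes were far apart with little spread within either, and the fitted level was 3.57-fold lower (log2 fold change -1.84 ± 0.11 SE, edgeR adjusted p = 0.000956). Orc1, the ATPase subunit of ORC whose level varies over the cell cycle, had 7.77, 8.34 and 9.06 CPM in Runx3 +/WRPW libraries and 12.7 and 15.4 CPM in Runx3 +/+ libraries. It was called 1.68-fold lower (edgeR adjusted p = 0.0221). Orc6, the small subunit that joins the complex loosely, had 18.6, 17.2 and 19.6 CPM in Runx3 +/WRPW libraries and 26.0 and 26.4 CPM in Runx3 +/+ libraries (1.42-fold lower, edgeR adjusted p = 0.0234). The calls of Orc1 and Orc6 were lost in each of the 5 fits without 1 library, where edgeR gave an adjusted p = 0.0519 to 0.168 for Orc1 and an adjusted p = 0.0516 to 0.166 for Orc6.

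The other ORC subunits, Orc2 to Orc5, each had similar levels in both genotypes. Orc2 had 52.3, 50.8 and 57.9 CPM in Runx3 +/WRPW libraries and 56.2 and 48.3 CPM in Runx3 +/+ libraries, which overlap (log2 fold change 0.04 ± 0.10 SE, edgeR adjusted p = 0.826). The exons of Orc2 overlap those of Nif3l1 on the other strand over 1150 bases, so reads of these genes cannot be told apart. Nif3l1 had mean levels of 9.46 CPM in Runx3 +/WRPW and 10.7 CPM in Runx3 +/+. Orc3, Orc4 and Orc5 had log2 fold changes of -0.10, -0.12 and -0.18 and did not pass either. Of these 4 subunits, Orc5 alone had all Runx3 +/WRPW libraries below both Runx3 +/+ libraries, a pattern found in 23.8% of all genes tested. Within a library, the log2 ratio of Orc1 to Orc2 counts was -2.67 ± 0.07 in Runx3 +/WRPW (SD, n = 3) and -1.90 ± 0.35 in Runx3 +/+ (SD, n = 2). The difference of -0.78 had an exact two-sided permutation p = 0.1 (adjusted 0.1 over 3 ratios), the smallest that 2 against 3 libraries allow. Cdt1, which brings the helicase ring to ORC, and geminin (Gmnn), the protein that blocks Cdt1 after licensing, did not pass. Cdt1 had 75.0, 65.3 and 72.0 CPM in Runx3 +/WRPW libraries and 80.6 and 78.9 CPM in Runx3 +/+ libraries (log2 fold change -0.17 ± 0.08 SE, edgeR adjusted p = 0.194). Gmnn had 11.2, 8.41 and 12.0 CPM in Runx3 +/WRPW libraries and 19.1 and 15.0 CPM in Runx3 +/+ libraries (log2 fold change -0.69 ± 0.19 SE, edgeR adjusted p = 0.0637). For both genes all Runx3 +/WRPW values lay below the wild-type values, and the lower Runx3 +/+ value of Gmnn was from library 2. The log2 ratio of Cdt1 to Gmnn was 2.76 ± 0.19 in Runx3 +/WRPW (SD, n = 3) and 2.23 ± 0.23 in Runx3 +/+ (SD, n = 2). The difference of 0.53 had an exact two-sided permutation p = 0.1, again the smallest possible.

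Changes of the 6 subunits of the helicase ring were small, while its activators Cdc45 and Mcm10 fell several-fold. Of the 12 helicase genes 6 were called lower and 6 did not pass (median log2 fold change -0.42). Cdc45, which joins the ring to form the active helicase, had 8.37, 8.41 and 9.34 CPM in Runx3 +/WRPW libraries and 22.1 and 26.9 CPM in Runx3 +/+ libraries. The 2 sets are far apart, and Cdc45 was 2.82-fold lower (log2 fold change -1.50 ± 0.13 SE, edgeR adjusted p = 0.00215). Mcm10, which helps the ring start unwinding, had 3.73, 7.78 and 4.83 CPM in Runx3 +/WRPW libraries and 15.6 and 18.5 CPM in Runx3 +/+ libraries. Its highest Runx3 +/WRPW value was in library 2, which stood apart in genes detected. Mcm10 was called 3.20-fold lower (edgeR adjusted p = 0.0194), and that call was lost without Runx3 +/+ library 1 or 2 or Runx3 +/WRPW library 3 (edgeR adjusted p = 0.109, 0.202 and 0.0680).

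Among the ring genes, Mcm3, Mcm5 and Mcm7 were called lower, and Mcm2, Mcm4 and Mcm6 were not. Mcm3 had 132, 116 and 133 CPM in Runx3 +/WRPW libraries and 186 and 180.1 CPM in Runx3 +/+ libraries (1.44-fold lower, edgeR adjusted p = 0.0108). Mcm5 had 155, 149 and 169 CPM in Runx3 +/WRPW libraries and 223 and 228 CPM in Runx3 +/+ libraries (1.43-fold lower, edgeR adjusted p = 0.00929). Mcm7 had 117, 113 and 117 CPM in Runx3 +/WRPW libraries and 148 and 147 CPM in Runx3 +/+ libraries (1.27-fold lower, edgeR adjusted p = 0.0118). In all 3 genes the genotypes were clear of each other by more than the spread within either. Mcm2 had 193, 183 and 189 CPM in Runx3 +/WRPW libraries and 223 and 213 CPM in Runx3 +/+ libraries (log2 fold change -0.21 ± 0.06 SE, edgeR adjusted p = 0.0776). Mcm4 had 165, 141 and 171 CPM in Runx3 +/WRPW libraries and 198 and 186 CPM in Runx3 +/+ libraries (log2 fold change -0.27 ± 0.10 SE, edgeR adjusted p = 0.123). Mcm6 had 231, 209 and 238 CPM in Runx3 +/WRPW libraries and 257 and 261 CPM in Runx3 +/+ libraries (log2 fold change -0.20 ± 0.08 SE, edgeR adjusted p = 0.143). These 3 genes also showed no overlap between genotypes, and whether their changes differed from those of Mcm3, Mcm5 and Mcm7 was not tested. Without Runx3 +/+ library 1 or 2, none of the ring genes kept a call, and Mcm7 lost its call without Runx3 +/WRPW library 1 as well; Mcm7 is also the host of the microRNA genes Mir25 and Mir93.

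GINS, the 4-subunit complex that completes the helicase, was uneven. Gins2 was called 1.69-fold lower at 5.62, 5.60 and 4.28 CPM in Runx3 +/WRPW libraries, against 8.36 and 9.11 CPM in Runx3 +/+ libraries (edgeR adjusted p = 0.0444). That call was lost in each of the 5 fits without 1 library. The exons of Gins2 overlap those of Gse1 on the other strand over 2758 bases, the counting is not stated to use strand, and Gse1 was itself 1.66-fold lower (edgeR adjusted p = 0.0118), so the reads of these genes cannot be told apart. Gins4 had 37.8, 35.2 and 36.8 CPM in Runx3 +/WRPW libraries and 37.4 and 39.8 CPM in Runx3 +/+ libraries, which overlap (log2 fold change -0.07 ± 0.07 SE, edgeR adjusted p = 0.548). Gins1 and Gins3 had log2 fold changes of -0.48 and -0.14 and did not pass.

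**Figure D2:**
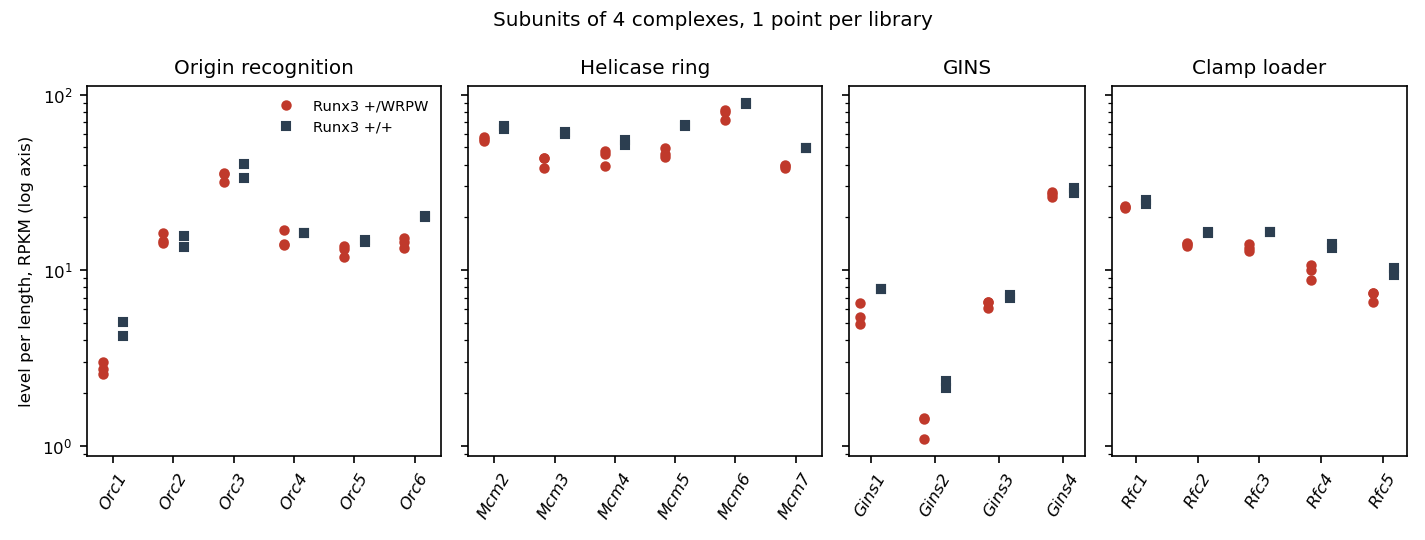
Levels per length (RPKM, CPM divided by the length of the principal transcript in kilobases, log axis) of the subunits of 4 complexes, 1 point per library, with Runx3 +/WRPW left of Runx3 +/+ for each gene. The 6 ring genes lie in a band from 38.2 to 89.7 RPKM over all libraries, while Orc1 and Gins2 lie well below the other subunits of their complexes in both genotypes.

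Per length, the ring genes were the most even of these complexes. Their mean levels ran from 39.1 (Mcm7) to 77.6 RPKM (Mcm6) in Runx3 +/WRPW and from 49.7 (Mcm7) to 89.1 RPKM (Mcm6) in Runx3 +/+, so highest over lowest was 1.99 and 1.79. The same ratio of levels was 12.3 in Runx3 +/WRPW and 7.91 in Runx3 +/+ for the 6 ORC genes, where Orc1 was lowest and Orc3 highest, and 20.5 and 12.8 for the 4 GINS genes, where Gins2 was lowest and Gins4 highest. For the 5 clamp loader genes it was 3.20 in Runx3 +/WRPW and 2.50 in Runx3 +/+. Lengths are those of the principal transcript in GENCODE M21, and a level per length shifts with the transcript chosen, in particular for Gins2, whose principal transcript is 3900 bases long. Across the 49 genes, a lower level per length in Runx3 +/+ went with a larger fall (Spearman rho 0.41 over 49 genes between level and log2 fold change). The wild-type values enter both quantities and all genes share the same libraries, so the coefficient is a description.

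The catalytic and second subunits of polymerase epsilon and the catalytic subunit of polymerase alpha fell, while no subunit of polymerase delta was called. Of the 9 genes of this role 5 were called lower and 4 were not, with a median log2 fold change of -0.37. Pole2, the second subunit of the leading-strand polymerase epsilon, had 13.7, 12.9 and 13.6 CPM in Runx3 +/WRPW libraries and 27.2 and 29.6 CPM in Runx3 +/+ libraries. It was 2.12-fold lower (log2 fold change -1.08 ± 0.09 SE, edgeR adjusted p = 0.00222), and the libraries of each genotype lay close together. Pole, the catalytic subunit of the same enzyme, had 37.9, 37.5 and 42.2 CPM in Runx3 +/WRPW libraries and 70.1 and 63.0 CPM in Runx3 +/+ libraries (1.70-fold lower, edgeR adjusted p = 0.00444). Pola1, the catalytic subunit of polymerase alpha that extends primers, had 27.2, 25.2 and 29.3 CPM in Runx3 +/WRPW libraries and 46.0 and 40.1 CPM in Runx3 +/+ libraries (1.58-fold lower, edgeR adjusted p = 0.0118). The primase genes Prim1 and Prim2, which make the RNA primers, were 1.29-fold and 1.31-fold lower (edgeR adjusted p = 0.0468 and 0.0320). Pola2, the second subunit of polymerase alpha, did not pass (log2 fold change -0.33 ± 0.11 SE). Pold2, a subunit of the lagging-strand polymerase delta, had 34.9, 34.1 and 33.9 CPM in Runx3 +/WRPW libraries and 36.0 and 37.2 CPM in Runx3 +/+ libraries. The values do not overlap, but they are near each other (log2 fold change -0.09 ± 0.07 SE, edgeR adjusted p = 0.411). The catalytic subunit gene Pold1 and the accessory subunit gene Pold3 had log2 fold changes of -0.16 ± 0.06 and -0.13 ± 0.06 (SE) and did not pass. The small accessory subunits, which belong to the list of other replication genes, did not pass either: Pole3 and Pole4 of epsilon had log2 fold changes of -0.04 and 0.00 with overlapping genotypes, and Pold4 of delta had 0.29, with all Runx3 +/WRPW libraries above both Runx3 +/+ libraries. Leaving out 1 library at a time kept the call of Pole2 in all 5 fits. Pole lost it without Runx3 +/+ library 1 or 2 (edgeR adjusted p = 0.0635 and 0.0543), Pola1 in these fits and without Runx3 +/WRPW library 1 (edgeR adjusted p = 0.0528 to 0.110), and Prim1 and Prim2 in all 5.

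The sliding clamp gene Pcna had a larger fitted fall than any gene of its loader. Of the 6 genes, 3 were called lower and 3 did not pass (median log2 fold change -0.38). Pcna, the ring that tethers polymerases to DNA, had 78.7, 73.0 and 78.0 CPM in Runx3 +/WRPW libraries and 112 and 139.9 CPM in Runx3 +/+ libraries. The Runx3 +/WRPW libraries were close to each other and the Runx3 +/+ libraries were not; the fitted change was 1.65-fold lower (edgeR adjusted p = 0.00934), and the call was lost without Runx3 +/+ library 2 (edgeR adjusted p = 0.0823). Rfc5 had 20.9, 20.7 and 18.5 CPM in Runx3 +/WRPW libraries and 28.7 and 26.3 CPM in Runx3 +/+ libraries (1.37-fold lower, edgeR adjusted p = 0.0364). Rfc2 had 70.6, 71.0 and 68.9 CPM in Runx3 +/WRPW libraries and 81.7 and 82.8 CPM in Runx3 +/+ libraries (1.17-fold lower, edgeR adjusted p = 0.0443). Both are small subunits of the loader that opens the clamp, and both calls were lost in each of the 5 fits without 1 library. The exons of Rfc2 overlap those of Lat2 on the other strand over 952 bases. Lat2 had mean levels of 2.10 CPM in Runx3 +/WRPW and 2.19 CPM in Runx3 +/+. Rfc4 fell just short (log2 fold change -0.48 ± 0.12 SE, edgeR adjusted p = 0.0508), and Rfc3 had a log2 fold change of -0.30 ± 0.09 (SE). Rfc1, the large subunit, had 109, 108 and 111 CPM in Runx3 +/WRPW libraries and 119 and 114 CPM in Runx3 +/+ libraries (log2 fold change -0.10 ± 0.05 SE, edgeR adjusted p = 0.302). The difference between the changes of Pcna and the loader genes was not tested. The number called lower in this role was 0 without Runx3 +/+ library 2 and 1 in each of the other 4 fits without a library.

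The enzymes that finish the lagging strand fell. Of 5 genes, 3 were called lower and 2 did not pass (median log2 fold change -0.41). Lig1, the ligase that seals Okazaki fragments, had 54.1, 52.2 and 50.9 CPM in Runx3 +/WRPW libraries and 83.6 and 92.6 CPM in Runx3 +/+ libraries (1.68-fold lower, edgeR adjusted p = 0.00280). Fen1, the nuclease that removes their primers, had 37.9, 38.2 and 39.7 CPM in Runx3 +/WRPW libraries and 54.4 and 57.5 CPM in Runx3 +/+ libraries (1.45-fold lower, edgeR adjusted p = 0.00593). In both genes the gap between genotypes was wider than the spread within one; the Fen1 call was lost without Runx3 +/+ library 2 (edgeR adjusted p = 0.0823). Exons of the antisense gene Gm10143, which has no row under that symbol among the counted genes, overlap 1909 bases of Fen1. Reads of Gm10143 can therefore not be told apart from those of Fen1. Rpa1, the large subunit of the single-strand binding protein RPA, had 163, 151 and 166 CPM in Runx3 +/WRPW libraries and 199.6 and 225 CPM in Runx3 +/+ libraries. It was called 1.33-fold lower (edgeR adjusted p = 0.0253), and that call remained only without Runx3 +/WRPW library 2 among the 5 fits without a library. Rpa3, the smallest subunit, had 19.0, 19.1 and 19.7 CPM in Runx3 +/WRPW libraries and 22.6 and 21.2 CPM in Runx3 +/+ libraries (log2 fold change -0.18 ± 0.09 SE, edgeR adjusted p = 0.237). Rpa2, the middle subunit, had a log2 fold change of -0.24 ± 0.07 (SE) and did not pass either. The number called lower in this role was 1 without Runx3 +/+ library 2, and 2 or 3 without any other library.

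All 5 nucleotide supply genes were called lower, with a median log2 fold change of -1.08. Rrm2, the small subunit of ribonucleotide reductase, which makes deoxyribonucleotides for S phase, had 8.00, 8.53 and 8.19 CPM in Runx3 +/WRPW libraries and 59.7 and 61.6 CPM in Runx3 +/+ libraries. The values within each genotype were nearly alike, and Rrm2 was 7.37-fold lower (log2 fold change -2.88 ± 0.08 SE, edgeR adjusted p = 7.08e-05), the largest fall of the 49 genes. Rrm1, the large subunit of the same enzyme, had 58.8, 49.9 and 64.5 CPM in Runx3 +/WRPW libraries and 99.1 and 93.3 CPM in Runx3 +/+ libraries (1.66-fold lower, edgeR adjusted p = 0.0112). The log2 ratio of Rrm2 to Rrm1 counts within a library was -2.80 ± 0.23 in Runx3 +/WRPW (SD, n = 3) and -0.67 ± 0.09 in Runx3 +/+ (SD, n = 2). All Runx3 +/WRPW ratios lay below both wild-type ratios; the difference of -2.13 had an exact two-sided permutation p = 0.1, the smallest this design allows, and it ran from -2.26 to -2.04 when any 1 library was left out. Per length, Rrm2 was at 3.76 RPKM and Rrm1 at 14.4 RPKM in Runx3 +/WRPW, against 27.7 and 24.1 RPKM in Runx3 +/+. The per-length order of the subunits was thus opposite in the genotypes, with principal transcripts of 2193 (Rrm2) and 3997 bases (Rrm1). That order depends on the transcripts chosen, and in CPM Rrm2 was below Rrm1 in every library.

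Tyms, which makes thymidylate, had 5.51, 8.16 and 6.35 CPM in Runx3 +/WRPW libraries and 16.1 and 23.1 CPM in Runx3 +/+ libraries. It was 2.97-fold lower (edgeR adjusted p = 0.00959), the Runx3 +/+ libraries were far from each other, and the call was lost without Runx3 +/+ library 2 (edgeR adjusted p = 0.101). The pseudogene Tyms-ps had at most 15 counts in a library. Tk1, the thymidine salvage kinase of S phase, had 5.23, 5.60 and 4.60 CPM in Runx3 +/WRPW libraries and 10.8 and 10.9 CPM in Runx3 +/+ libraries (2.11-fold lower, edgeR adjusted p = 0.00866). Dut, which keeps uracil out of DNA by breaking down dUTP, had 41.8, 36.5 and 47.0 CPM in Runx3 +/WRPW libraries and 66.5 and 65.5 CPM in Runx3 +/+ libraries (1.58-fold lower, edgeR adjusted p = 0.0150). Neither gene showed overlap between genotypes. Leaving out Runx3 +/+ library 1 or 2 ended the calls of Rrm1, Tk1 and Dut (edgeR adjusted p = 0.0782 to 0.179), and leaving out Runx3 +/WRPW library 1 ended that of Dut (edgeR adjusted p = 0.0580). Rrm2 was called in all 5 fits without 1 library.

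**Figure D3:**
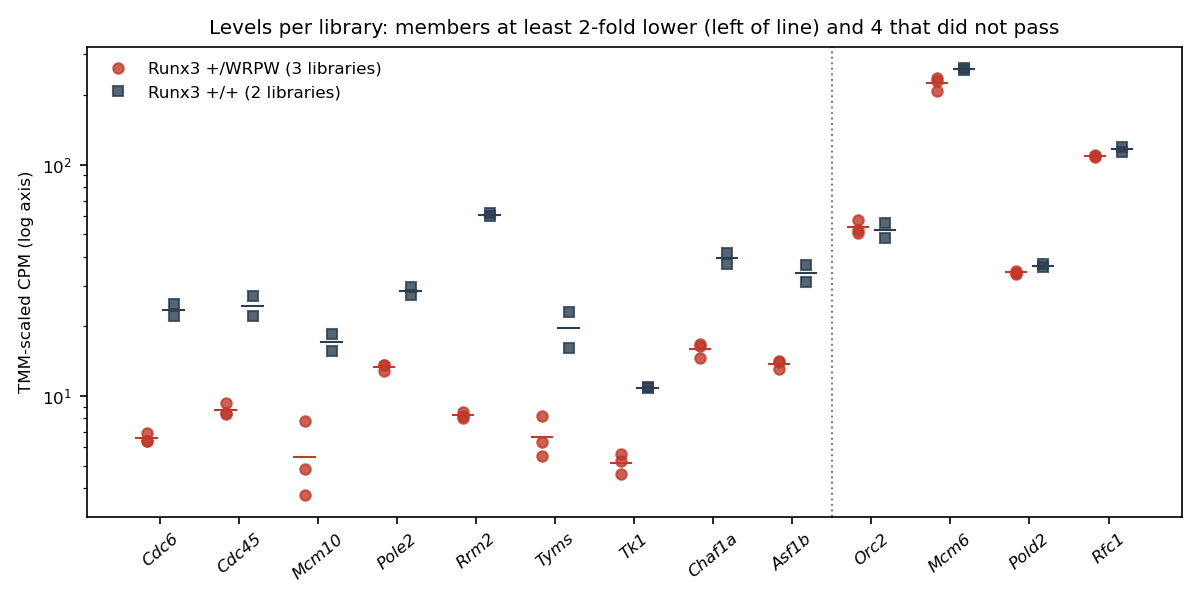
TMM-scaled CPM per library (log axis) of the 9 genes that were at least 2-fold lower, left of the dotted line, and of 4 genes that did not pass, right of it, with Runx3 +/WRPW left of Runx3 +/+ and short lines at the means. The 3 Runx3 +/WRPW points of Rrm2 lie between 8.00 and 8.53 CPM and its Runx3 +/+ points at 59.7 and 61.6 CPM, while the points of Orc2 overlap.

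The chromatin assembly genes fell together, with a median log2 fold change of -1.30 and all 3 called lower. Chaf1a, the large subunit of CAF-1, which places new histones behind the fork, had 16.4, 14.6 and 16.7 CPM in Runx3 +/WRPW libraries and 37.2 and 41.7 CPM in Runx3 +/+ libraries (2.48-fold lower, edgeR adjusted p = 0.00170). Chaf1b, the middle subunit of CAF-1, had 16.8, 16.8 and 14.0 CPM in Runx3 +/WRPW libraries and 26.5 and 29.5 CPM in Runx3 +/+ libraries (1.76-fold lower, edgeR adjusted p = 0.0106). Asf1b, the histone chaperone that hands histones to CAF-1, had 13.1, 14.1 and 14.1 CPM in Runx3 +/WRPW libraries and 31.0 and 36.9 CPM in Runx3 +/+ libraries (2.47-fold lower, edgeR adjusted p = 0.00206). For each gene the highest Runx3 +/WRPW value was well under the lowest Runx3 +/+ value, and the only call lost when 1 library was left out was that of Chaf1b without Runx3 +/+ library 2 (edgeR adjusted p = 0.105). The exons of Chaf1a overlap those of Ubxn6 on the other strand over 4648 bases; Ubxn6 had 79.2 ± 3.26 CPM in Runx3 +/WRPW (SD, n = 3) and 78.3 ± 3.34 CPM in Runx3 +/+ (SD, n = 2).

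Of a list of 41 other replication genes, 18 (43.9%) were called lower, 1 higher and 22 did not pass (median log2 fold change -0.40). All Runx3 +/WRPW libraries lay below both Runx3 +/+ libraries for 30 of these genes and above them for 5, and 34 of the 41 log2 fold changes were negative. Over all genes tested, 7.33% were called lower and 6.24% higher, and the patterns without overlap were found in 23.8% (below) and 24.7% (above). Uhrf1, which reads hemimethylated DNA behind the fork and recruits Dnmt1, had 32.3, 27.5 and 29.4 CPM in Runx3 +/WRPW libraries and 85.8 and 101 CPM in Runx3 +/+ libraries (3.13-fold lower, edgeR adjusted p = 0.00101). Clspn, the fork mediator of the replication checkpoint, had 11.9, 11.0 and 12.8 CPM in Runx3 +/WRPW libraries and 39.5 and 47.8 CPM in Runx3 +/+ libraries (3.66-fold lower, edgeR adjusted p = 0.00115). In both genes the Runx3 +/+ libraries were all well above the Runx3 +/WRPW libraries. Dtl, the adaptor that marks Cdt1 for destruction at the fork, had 14.2, 14.3 and 14.4 CPM in Runx3 +/WRPW libraries and 32.8 and 33.8 CPM in Runx3 +/+ libraries (2.32-fold lower, edgeR adjusted p = 0.00132). Ticrr, which helps place Cdc45 on the ring, had 8.32, 8.34 and 9.80 CPM in Runx3 +/WRPW libraries and 19.6 and 19.6 CPM in Runx3 +/+ libraries (2.22-fold lower, edgeR adjusted p = 0.00363). Its call was lost without Runx3 +/+ library 2 (edgeR adjusted p = 0.0554). The one gene called higher was Rrm2b, the alternative small subunit of ribonucleotide reductase that is used outside S phase. It had 27.7, 27.5 and 28.2 CPM in Runx3 +/WRPW libraries and 22.6 and 20.3 CPM in Runx3 +/+ libraries (log2 fold change 0.38 ± 0.09 SE, edgeR adjusted p = 0.0450). That call was lost in each fit without 1 library. Rrm2b was thus above Rrm2 in CPM in each Runx3 +/WRPW library and below it in each Runx3 +/+ library; per-length levels were not computed for Rrm2b. Of the 41 genes, 11, 14 and 12 were called lower when Runx3 +/WRPW library 1, 2 or 3 was left out. Over all genes tested in those fits, 3.53%, 6.36% and 3.99% were. Fewer of the 41 were called without Runx3 +/+ library 1 or 2, where 1 wild-type library remains.

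Genes of mitosis gave larger changes beside these. All 24 genes of a mitosis list were called lower, with a median log2 fold change of -2.42, and 18 of them were at least 4-fold lower, against 1 of the 49 replication genes and 1.1% of all genes tested. Mki67, the proliferation antigen, had 30.4, 32.1 and 33.0 CPM in Runx3 +/WRPW libraries and 244 and 254 CPM in Runx3 +/+ libraries. Top2a, the topoisomerase that untangles sister chromosomes, was 6.85-fold lower, Nusap1 and Cenpf, a spindle and a kinetochore gene, 6.74-fold and 6.80-fold lower (edgeR adjusted p = 7.08e-05, 0.000736 and 0.000736). The largest change of a replication gene, that of Rrm2, was thus of the size seen in mitosis genes, and the least changed mitosis gene, Incenp (log2 fold change -0.83), lay within the range of the replication genes. Summed levels of the mitosis list were 196, 221 and 207 CPM in Runx3 +/WRPW libraries and 986 and 1051 CPM in Runx3 +/+ libraries, a ratio of 0.204, against 0.751 for the 49 replication genes. By role, the ratio of summed levels was 0.472 for nucleotide supply, 0.449 for chromatin assembly, 0.731 for strand binding and Okazaki maturation, 0.781 for polymerases, 0.782 for clamp and loader, 0.784 for the helicase and 0.850 for licensing. Without Runx3 +/WRPW library 1, 2 or 3, 20, 24 and 20 of the mitosis genes were called lower. Over all genes tested in those fits, 3.53%, 6.36% and 3.99% were. Fewer mitosis genes than in the main fit were called without Runx3 +/+ library 1 or 2, where 1 wild-type library remains. The difference between the lists was not tested.

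**Figure D4:**
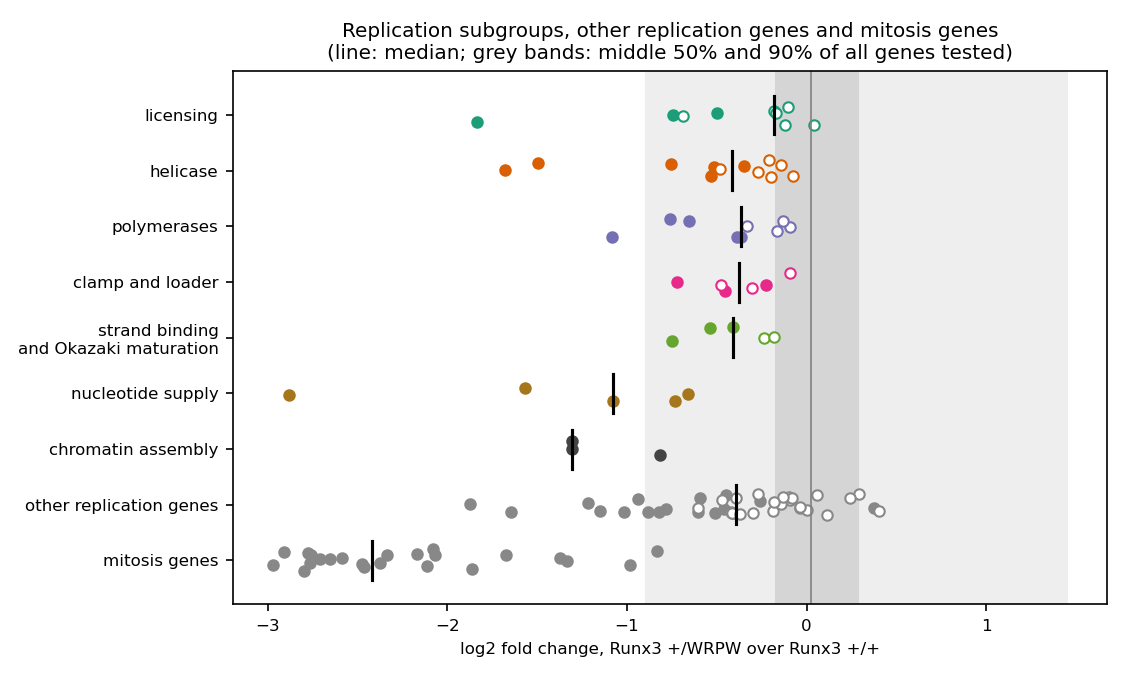
Log2 fold changes (Runx3 +/WRPW over Runx3 +/+, x axis) of the replication genes by role, of 41 other replication genes and of 24 mitosis genes; filled points passed the test, black lines are medians, and the grey bands hold the middle 50% (dark) and 90% (light) of all genes tested. Medians run from -0.18 for licensing to -1.30 for chromatin assembly, and the mitosis median is -2.42.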

How the data were processed

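RNA-seq of sorted mature CD8 SP thymocytes gave 1 file per sample of raw counts of reads per gene symbol, as deposited by the authors without normalization. The build was mm10 and the tools listed per the submitters' processing notes are edgeR 3.36.0, featureCounts 2.0.8, HISAT2 2.2.1 and cutadapt 4.0; the sources used here state no annotation, strand or multi-mapping setting, so overlapping antisense genes cannot be separated. Groups followed the genotype label. Per the file headers, a 3 stands in the column name of Runx3 +/+ library 2, and a general aligner name heads Runx3 +/WRPW library 2; sample records decided.

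All genes were fitted in R 4.3.3 with the quasi-likelihood functions glmQLFit and glmQLFTest of edgeR 4.0.16. Low genes were first dropped by filterByExpr (minimum count 10), TMM factors were 0.981 to 1.034, and p-values were adjusted by Benjamini-Hochberg over 13666 genes. Fold changes have Runx3 +/WRPW on top. Standard errors (SE) are the size of the log2 change over the root of the F statistic. Ratios within a library used a pseudocount of 0.5 counts and an exact permutation test. The smallest chi-square per gene between a pair of libraries was 15.4, so no pair was a copy within sampling noise. Lengths and overlaps came from GENCODE M21 and promoter windows from RefSeq (GRCm38.p6). The pipeline was tested on simulated data. Alternatives were DESeq2 1.42.0, voom in limma 3.58.1, factors by RLE or upper quartile, other filters, the replicate number as a block, and leaving out each library.

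The members, lists and tests were chosen with earlier results of these data known. Every member is named; values per library are given, by role, for the 3 smallest and the largest p-value, the genes of the 3 ratios and Mcm2 to Mcm7, and of other lists for up to 4 called genes, Mki67 and Top2a. Mcm10, Gins2, Rrm2b, Incenp, Pole3, Pole4, Pold4 and the thymocyte markers were added after their values were seen.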

Additional observations from a re-analysis of the deposited data

How the results depend on the processing

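The direction of the replication genes did not depend on the setting, and the number of calls did. Their median log2 fold change was -0.52 to -0.43 over the 12 alternatives, with 47 to 49 of 49 values negative and 0 genes called higher in each. The sign turned for Orc2 (-0.016 with the replicate block, and -0.074 to 0.12 with 1 library left out) and for Orc3 (-0.24 to 0.0084 with 1 library left out), neither of which was called in any fit. Replication genes called lower numbered 28 with RLE factors and limma-voom, 25 with upper-quartile factors, 36 with DESeq2, 23 without the low-count filter and 29 with the stricter filter. All genes called numbered 3427 with DESeq2 and 1079 without the low-count filter, against 1855, and 277 to 1431 with 1 library left out.

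With 1 library left out, the number of calls was 7 to 21 for the replication genes, 1 for licensing, 1 to 5 for the helicase, 1 to 3 for polymerases, 0 to 1 for clamp and loader, 1 to 3 for strand binding and Okazaki maturation, 1 to 5 for nucleotide supply, 4 to 14 lower and 0 higher for the other replication genes, and 15 to 24 for mitosis. Fits without a Runx3 +/+ library tested 18369 or 18169 genes and took the lone wild-type library to vary like the other genotype. Polymerase calls were 3 without the low-count filter; clamp and loader calls were 1 with upper-quartile factors and 5 with DESeq2. The other replication genes called higher were 2 with upper-quartile factors, DESeq2 or the stricter filter, and 0 without the low-count filter. The causes of these shifts were not tested, beyond the smaller number of samples.

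With the replicate number as a block, calls fell to 754 over all genes, 16 for the replication genes, 1 for licensing, 3 for polymerases, 0 for clamp and loader, and 9 lower and 0 higher for the other replication genes. The libraries share only a number, and Runx3 +/WRPW library 3 has no partner. Deviations of same-numbered libraries correlated at -0.0492 and 0.00244, and those of differently numbered libraries at -0.0491 to 0.0492. The deviations of the 2 Runx3 +/+ libraries mirror each other, so these values cannot decide on a pairing. Of the 3 log2 ratios none changed sign under any alternative. The lowest count of a replication gene in any library was 90.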
